A study of Mus musculus with 9 samples.

Results

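The genes described here make or sense prostaglandins and leukotrienes, the signalling lipids called eicosanoids. They are the 10 genes Pla2g4a, Ptgs1, Ptgs2, Ptges, Hpgds, Tbxas1, Ptger4, Alox5, Alox5ap and Lta4h, chosen by symbol from the deposited table of 13593 genes. All 10 were present and all 10 passed the filter on low counts. The RNA came from mouse macrophages grown out of bone marrow of wild-type C57BL/6 animals aged 6 weeks, in medium holding 15% of a supernatant from L929 cells, for 7 days. They then had 4 nM of CX3CL1, of CCL26 or, as the control protein, of bovine serum albumin (BSA) for 4 h, with 3 libraries in each group. Both proteins are chemokines and are named in the series title as ligands of the receptor CX3CR1, so the comparisons ask what each does to macrophages and whether they differ. The labels leave unsaid whether each replicate had its own animal or culture. The p-values rest on the variation among libraries, possibly technical only.

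Eicosanoids are made from arachidonic acid, which cytosolic phospholipase A2 (Pla2g4a) cuts out of membrane lipids. The cyclooxygenases COX-1 (Ptgs1) and COX-2 (Ptgs2) turn it into prostaglandin H2, from which separate enzymes make prostaglandin E2 (Ptges), prostaglandin D2 (Hpgds) and thromboxane A2 (Tbxas1). In the other branch 5-lipoxygenase (Alox5), helped by its membrane partner FLAP (Alox5ap), makes leukotriene A4, which leukotriene A4 hydrolase (Lta4h) converts to the neutrophil attractant leukotriene B4. Macrophages are known for carrying both branches and for inducing COX-2 and the prostaglandin E synthase when they meet microbial products.

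Depth ran from 16923982 to 23198324 counts per library. CX3CL1 replicate 1 stood apart: 1193 genes had no count in it where the remaining 8 libraries had 80 to 170 such genes. Its mean correlation with the rest across genes was 0.918, and theirs 0.979 to 0.982. Tests were therefore run on all 9 libraries and on the 8 without it, called the 8-library fit. In both fits edgeR's quasi-likelihood test was run on the whole table with Benjamini-Hochberg adjustment at a threshold of 0.05. The macrophage markers Adgre1, Csf1r, Cd68 and 7 others were all in the table, with a summed level of at least 24982 CPM in every library, while of 12 mast cell, basophil and eosinophil markers 3 were (Kit, Gata2 and Siglecf, at most 6.91 CPM in sum in any library) and Cpa3, Fcer1a and Tpsb2 were not. Kit was higher with CCL26 than with BSA in the 8-library fit (log2 fold change 1.26, edgeR adjusted p = 0.0115) and was not called with 9 libraries (adjusted p = 1). Levels are in CPM, counts scaled to a common library size, or in RPKM, CPM per kilobase of annotated exon, where genes are compared with each other.

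In control macrophages the prostaglandin D2 synthase gene Hpgds stood highest of the 10 genes by RPKM, at 45.5 ± 0.503 (SD, n = 3), above 91.8% of 12905 genes with a length. Alox5ap followed at 35.7 ± 6.05 RPKM. Then came Pla2g4a (13.6 ± 0.562), Ptgs2 (10.1 ± 0.132), Lta4h (9.01 ± 0.197) and Tbxas1 (6.75 ± 0.288). Alox5 (4.02 ± 0.485) and the prostaglandin E2 receptor gene Ptger4 (3.93 ± 0.468) came next and overlapped between libraries, the only neighbours in this order that did. Ptgs1 (2.44 ± 0.305) and Ptges (1.56 ± 0.332) were lowest. COX-2 message thus exceeded COX-1 message in all 3 control libraries. The middle of this order depends on the length used, the union of all annotated exons (1420 bases for Alox5ap, 9094 for Tbxas1). By mean CPM Tbxas1 (61.3) stood above Lta4h (55.0), Alox5ap (50.8) and Ptgs2 (46.1), while Hpgds stayed highest (292) and Ptges lowest (6.13). The lengths of the transcripts made in these cells were not measured.

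**Figure D1:**
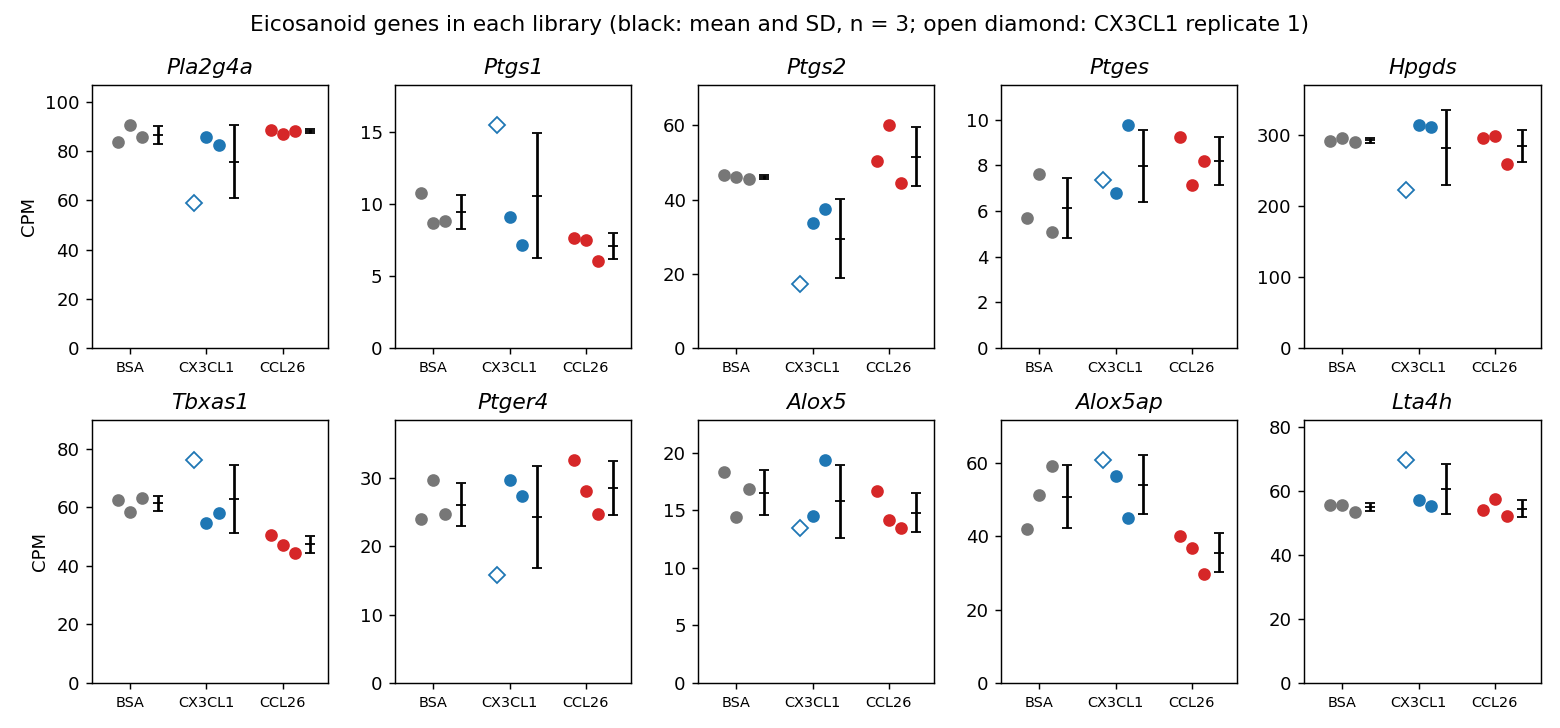
Level of each of the 10 genes in each library, in CPM (linear axis from 0), by treatment; points are libraries, the open diamond is CX3CL1 replicate 1, and the black bar is the mean with the SD over 3 libraries. Alox5ap and Tbxas1 lie lower in the 3 CCL26 libraries than in the 3 BSA libraries. The open diamond lies below every other point for Ptgs2, Hpgds, Pla2g4a and Ptger4, and above every other for Ptgs1, Alox5ap, Lta4h and Tbxas1.

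With CCL26 the 2 of the 10 genes that passed against BSA were those of FLAP and thromboxane synthase, both lower. Alox5ap had a log2 fold change of -0.50 and Tbxas1 of -0.37 in the 8-library fit, and both fell past the test there (2 of 10, where 19.0% of 13245 genes passed, 9.26% lower). No gene of the 10 was called higher, though 4 had values above 0, up to 0.42 for Ptges. The enzymes that release arachidonate (Pla2g4a) and make prostaglandin D2 (Hpgds) stayed within 0.03 of 0 on the log2 scale. With all 9 libraries in 1 fit 0 of the 10 passed, where 0.434% of 12915 genes did. At an unadjusted p under 0.05 there were 2 of the 10 and 6.13% of the genes, and DESeq2 called none of the 10.

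Alox5ap stood at 41.9, 51.3 and 59.1 CPM in the 3 BSA libraries and at 40.0, 36.9 and 29.8 CPM in the 3 CCL26 libraries. The groups did not overlap, but the lowest control and the highest CCL26 library lay close together. The log2 fold change was -0.51 (SE 0.184) with 9 libraries and -0.50 (SE 0.114) with 8, with edgeR adjusted p-values of 0.603 and 0.00213. Fitted on the BSA and CCL26 libraries alone, without any CX3CL1 library, it was -0.52 (SE 0.109, edgeR adjusted p = 0.00114). The gene lies on chromosome 5 from 149264767 to 149288153 (GRCm38, GENCODE M21), and 189 bases of its exons overlap an antisense gene, whose reads cannot be told from its own without strand.

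Tbxas1 stood at 62.6, 58.3 and 63.1 CPM with BSA and at 50.4, 47.1 and 44.4 CPM with CCL26. Here the gap between the groups was wider than the range inside either. The log2 fold change was -0.38 (SE 0.148, edgeR adjusted p = 0.713) with 9 libraries, -0.37 (SE 0.0735, adjusted p = 0.00062) with 8, and -0.38 (SE 0.076, adjusted p = 0.000621) with the 6 libraries of the 2 groups. Most macrophage markers moved the same way: 8 of 10 were called lower in the 8-library fit and none higher. The median log2 fold change was -0.21. The summed level of these markers was 24982 to 25515 CPM with CCL26, 30889 to 31418 with BSA and 29066 to 43346 with CX3CL1 (at most 29822 without replicate 1). Lyz2 made up most of that sum, at 18017 to 18509 CPM with CCL26 and 23172 to 23731 with BSA. Csf1r went the other way, at 1279, 1294 and 1297 CPM with CCL26 and 1251, 1262 and 1270 with BSA. Mertk overlapped between these groups. With 9 libraries none of these markers passed. Markers of other cells that carry this pathway summed to less than the macrophage markers, but to more than Alox5ap or Tbxas1 alone. Of 12 neutrophil genes 9 were in the table (94.1 to 99.6 CPM with BSA, 107 to 108 with CCL26, 2 of them higher and none lower). Of 9 platelet genes 6 were (112 to 113 and 106 to 116 CPM), with Pf4 lower and Vwf higher. Most of the platelet sum was Pf4, at 80.8 to 83.8 CPM with BSA and 65.8 to 72.8 with CCL26. The part of any of these cell types in the lower Alox5ap and Tbxas1 values was not tested. In RNA from whole cultures, fewer cells of a kind and less RNA per cell cannot be told apart.

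Tbxas1 lies on chromosome 6 from 38875404 to 39084585, and 144 bases of its exons overlap the antisense gene Gm42962. The stretch before its RefSeq start site is shown because Tbxas1 passed for CCL26 against BSA in each of 8 fits that left out 1 further library. Alox5ap did so too. The stretch spans chr6:38918736-38918985 on the plus strand (GRCm38.p6, RefSeq). It lies inside the gene span given above, so the RefSeq start used here is not the first base of that span. Capitals mark matches on either strand to an AP-1 site (TGANTCA), a PU.1 site (GAGGAA) and a TATA box (TATAAA), the last 2 of which adjoin. The AP-1 match is TGATTCA, where the pattern allows any middle base. The TATA matches begin at -13 and -11 from the RefSeq start site.
Tbxas1: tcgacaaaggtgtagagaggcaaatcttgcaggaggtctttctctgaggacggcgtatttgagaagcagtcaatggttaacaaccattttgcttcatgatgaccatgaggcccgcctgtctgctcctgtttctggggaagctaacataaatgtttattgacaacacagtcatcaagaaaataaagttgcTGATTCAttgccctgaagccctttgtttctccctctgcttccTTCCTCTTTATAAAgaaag

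PU.1 is a factor that macrophages need for their identity, and its letters were found in the promoter windows, 300 bases from 250 before the start site, of 7 of the 9 genes with an entry. This motif is short and occurs in 28.3% of all 32851 windows in the RefSeq table. AP-1 letters were in 7.81% and TATA letters in 13.6% of them. No window of the 9 genes held an NF-kB site, the core of an interferon-stimulated response element or a GAS site (TTCNNNGAA), which 4.51%, 3.44% and 8.3% of all windows hold. These are matches of letters only, and sequence outside the windows was not searched.

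Neither cyclooxygenase gene passed between CCL26 and BSA, and their values had opposite signs. With 9 libraries Ptgs1 had -0.41 (SE 0.281) and Ptgs2 0.16 (SE 0.258), both with an edgeR adjusted p of 1. Ptgs1 stood at 10.8, 8.72 and 8.83 CPM with BSA and at 7.68, 7.53 and 6.08 with CCL26, with no overlap, but its log2 fold change of -0.41 (SE 0.17 in the 8-library fit) did not pass (edgeR adjusted p = 0.0998). Ptgs2 stood at 46.7, 46.1 and 45.5 CPM with BSA and at 50.3, 60.1 and 44.4 with CCL26. The CCL26 libraries lay on both sides of the narrow control range, and 0.17 (SE 0.091, edgeR adjusted p = 0.232) did not pass either.

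None of the remaining genes passed in either fit, and values are from the 8-library fit. With 9 libraries these genes lay within 0.01 of them, with edgeR adjusted p-values of 0.953 for Ptges and 1 for the others. Ptges, at 6.13 ± 1.31 CPM with BSA and 8.19 ± 1.04 with CCL26, had 0.42 (SE 0.192, edgeR adjusted p = 0.139). Ptger4, the EP4 receptor through which prostaglandin E2 raises cyclic AMP, ranged from 24.0 to 29.7 CPM with BSA and from 24.8 to 32.7 with CCL26 and had 0.13. Its exons share 82 bases with those of Ttc33 and 1015 with the pseudogene Gm15937, both on the opposite strand, and without strand such reads cannot be told apart. Alox5, the first enzyme of the leukotriene branch, ranged from 14.4 to 18.3 CPM and from 13.5 to 16.7 and had -0.15. Both pairs of groups overlapped. Lta4h (55.0 ± 1.20 and 54.6 ± 2.81 CPM, -0.01), Pla2g4a (86.6 ± 3.59 and 88.0 ± 0.856 CPM, 0.03) and Hpgds (292 ± 3.23 and 285 ± 22.7 CPM, -0.03) were nearest to 0. Across all 10 the median was -0.02, beside 0.01 over all 13245 genes of that fit.

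The CCL26 and BSA libraries did not overlap for 3 of the 10 genes, all lower, while they did not overlap for 33.1% of all 12915 genes. The shares of the 10 genes, 2 called and 3 without overlap, are near those of the table. On the BSA and CCL26 libraries alone the same 2 genes passed, where 19.3% of the genes tested did.

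**Figure D2:**
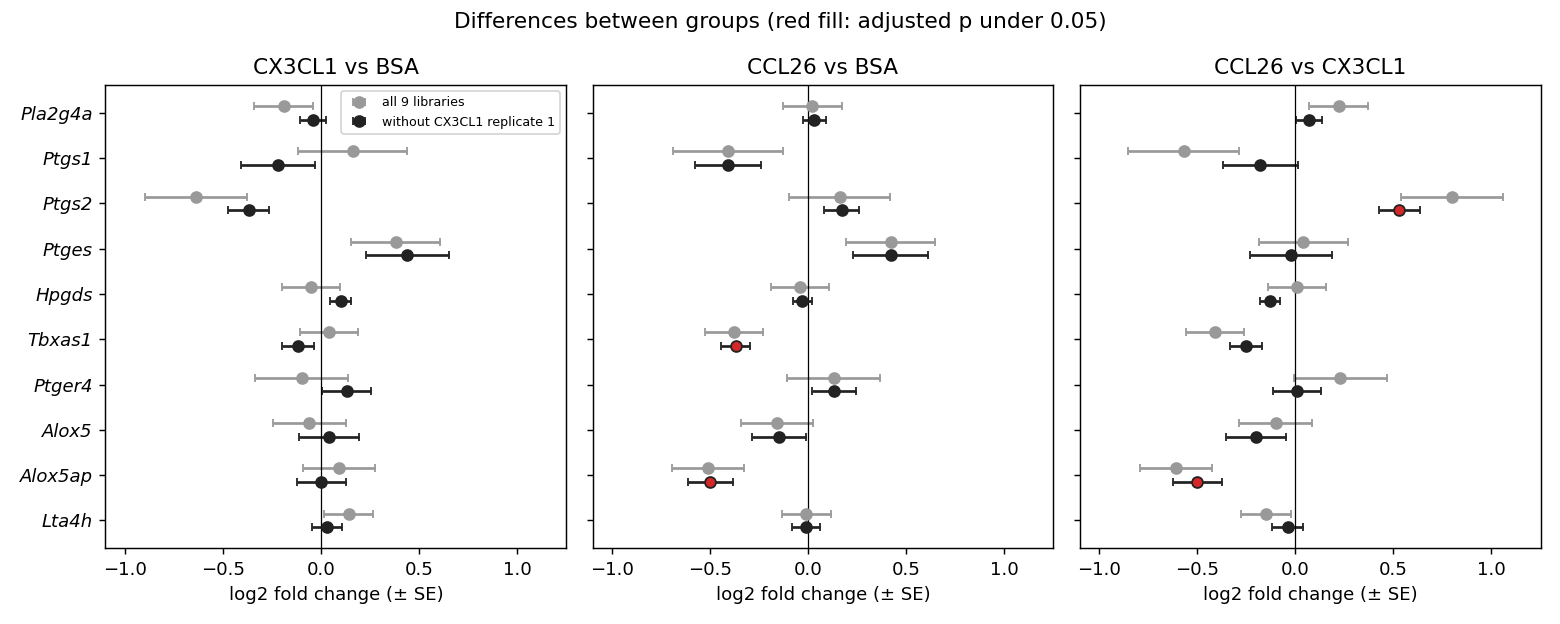
Log2 fold change of each gene (horizontal axis, bars are ± 1 SE) in the 3 comparisons, from all 9 libraries (grey) and from the 8 without CX3CL1 replicate 1 (black); red filling marks an edgeR adjusted p under 0.05. Only 4 points are red, all from the 8-library fit: Alox5ap and Tbxas1 below 0 for CCL26 against BSA, and Ptgs2 above and Alox5ap below 0 for CCL26 against CX3CL1.

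CX3CL1 gave no change past the test in any of the 10 genes. The value farthest from 0 in all 9 libraries was that of COX-2, whose message was lower in each CX3CL1 library than in any control. Ptgs2 stood at 17.3, 33.7 and 37.6 CPM with CX3CL1 against 45.5 to 46.7 with BSA. The lowest of these is CX3CL1 replicate 1, and the other 2 libraries were lower than the controls as well. The log2 fold change was -0.64 (SE 0.26, edgeR adjusted p = 0.711) with 9 libraries and -0.37 (SE 0.105, adjusted p = 0.194) with 8, so the value moved by over 1.5 times without that library. It was called in 1 of the 8 fits that left out a further library, that without CCL26 replicate 3 (edgeR adjusted p = 0.0257).

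The mouse Ptgs2 gene is on chromosome 1 from 150100031 to 150108227. Its upstream stretch is shown because Ptgs2 had the largest difference of the 10 genes between the chemokines, in either fit. It spans chr1:150099781-150100030 on the plus strand (GRCm38.p6, RefSeq). Capitals mark a PU.1 match and a match to a C/EBP site (TTGCNNAA), which 10.8% of all windows hold. A short CRE-like site (TGACG, 20.8% of windows) and an E-box (CACGTG, 7.15%) begin after the RefSeq start site used here. Where the RNA starts in these cells was not tested.
Ptgs2: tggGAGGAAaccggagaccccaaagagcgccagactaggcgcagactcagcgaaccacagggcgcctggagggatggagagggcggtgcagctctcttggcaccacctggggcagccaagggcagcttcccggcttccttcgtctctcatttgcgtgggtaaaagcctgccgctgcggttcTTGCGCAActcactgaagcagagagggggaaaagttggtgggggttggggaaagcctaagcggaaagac

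For 6 of the other genes the sign with CX3CL1 depended on replicate 1. Ptgs1 stood at 15.5, 9.09 and 7.18 CPM and Hpgds at 222, 314 and 311 CPM in CX3CL1 replicates 1 to 3. In both, replicate 1 lay outside the range of all other 8 libraries, on the high side for Ptgs1 and on the low side for Hpgds. The log2 fold change of Ptgs1 turned from 0.16 to -0.22 without it and that of Hpgds from -0.05 to 0.10, and those of Ptger4 (-0.10 to 0.13), Alox5 (-0.06 to 0.04) and Tbxas1 (0.04 to -0.12) turned as well. Ptges had 0.38 (SE 0.228) with 9 and 0.44 (SE 0.212) with 8 libraries. Single libraries moved it by over 1.5 times: of the 9, to 0.20 without CX3CL1 replicate 3, and of the 8, to 0.14 without CX3CL1 replicate 3 and to 0.67 without CX3CL1 replicate 2. Pla2g4a stood at 58.9 CPM in replicate 1 and at 85.7 and 82.7 in the others, within the control range of 83.7 to 90.6 or just below it, with -0.19 and -0.04. Lta4h had 0.14 and 0.03. Alox5ap, which fell with CCL26 in the 8-library fit, had 0.09 with 9 and, just below zero, 0.00 (SE 0.125) with 8 libraries. In this comparison 0 of 10 genes passed where 0.00% of the table did with 9 libraries, and 0 of 10 where 0.332% did with 8. At an unadjusted p under 0.05 there were 1 of the 10 with 9 libraries (3.14% of the table) and 2 with 8 (7.48%), and DESeq2 called none. Groups did not overlap for 1 of the 10, Ptgs2, and for 11.7% of the table with 9 libraries.

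Set directly against each other, the chemokines differed in COX-2 and FLAP message. Ptgs2 was higher and Alox5ap lower with CCL26 than with CX3CL1. Both passed in the 8-library fit, which leaves 2 CX3CL1 libraries, and neither did with all 9.

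Ptgs2 ranged from 44.4 to 60.1 CPM with CCL26 and from 17.3 to 37.6 with CX3CL1, without overlap. The log2 fold change was 0.80 (SE 0.261, edgeR adjusted p = 0.423) with 9 libraries and 0.53 (SE 0.104, adjusted p = 0.00103) with 8. Alox5ap ranged from 29.8 to 40.0 CPM with CCL26 and from 45.1 to 60.9 with CX3CL1. It had -0.61 (SE 0.184, edgeR adjusted p = 0.423) and -0.50 (SE 0.125, adjusted p = 0.00941), and was not called (adjusted p = 0.263) when CX3CL1 replicate 2 was left out as well. Ptgs2 stayed past the threshold in each of 8 fits that left out 1 further library.

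Tbxas1 was also lower with CCL26 than in any CX3CL1 library, 44.4 to 50.4 against 54.5 to 76.2 CPM, and came close to the threshold in the 8-library fit (-0.25, SE 0.0818, edgeR adjusted p = 0.0521). It passed when CCL26 replicate 1 was left out as well (-0.30, edgeR adjusted p = 0.0378) and in no other fit that left out a further library. Macrophage markers stood lower here too: 6 of 10 were lower with CCL26 than with CX3CL1 in the 8-library fit and none higher, with a median of -0.21, and none passed with 9 libraries. Their part in the lower Alox5ap and Tbxas1 values was not tested. Hpgds had -0.13 (SE 0.0527) in that fit, the opposite sign to its 0.01 with 9. The other 6 genes lay between -0.20 and 0.07 with 8 libraries, Alox5 and Pla2g4a at the ends. In all 1 of 10 genes was higher and 1 lower in this fit, where 10.1% of 13245 genes passed, 5.47% higher and 4.64% lower. With 9 libraries 0 of 10 passed, where 0.410% of the table did. At an unadjusted p under 0.05 there were 3 of the 10 and 11.5% of the table, and DESeq2 called none of the 10. The groups did not overlap for 4 of the 10 genes (Ptgs2 and Pla2g4a higher, Alox5ap and Tbxas1 lower), and for 22.6% of the table. This comparison shares its CCL26 libraries with the first and its CX3CL1 libraries with the second, so the 3 sets of values are not independent.

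Ratios of 2 genes inside the same library do not depend on how libraries are scaled. The level of Ptgs2 over that of Ptgs1, each per length, was 3.66, 4.48 and 4.37 with BSA and 5.55, 6.76 and 6.19 with CCL26. With CX3CL1 it was 0.946, 3.15 and 4.43, the first from replicate 1. COX-2 thus outweighed COX-1 more in each CCL26 library than in any other library, although neither gene passed the test against BSA. An exact permutation test on the log ratios gave p = 0.1 (two-sided, n = 3 per group), the smallest that 3 against 3 libraries allow.

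Ratios among the enzymes that use prostaglandin H2 were taken in the same way. Hpgds over Tbxas1 was 6.56, 7.18 and 6.52 with BSA, 8.32, 9.0 and 8.24 with CCL26, and 4.12, 8.14 and 7.56 with CX3CL1. Tbxas1 over Ptges was 4.75, 3.32 and 5.35 with BSA and 2.36, 2.85 and 2.34 with CCL26, against 4.48, 3.48 and 2.58 with CX3CL1. CCL26 and BSA did not overlap in either ratio (exact permutation p = 0.1 for each, again the smallest possible). Tbxas1 itself did not overlap between these groups, and neither did Ptgs1. These ratios and that of Ptgs2 over Ptgs1 are therefore not separate results from those genes. Of all tested genes 33.1% did not overlap there, and the share among pairs of genes was not measured. Hpgds over Ptges (exact permutation p = 0.2, n = 3 per group) and Alox5ap over Alox5 (p = 0.3) overlapped. Of these 5 ratios none can pass an adjusted threshold at this number of libraries.

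**Figure D3:**
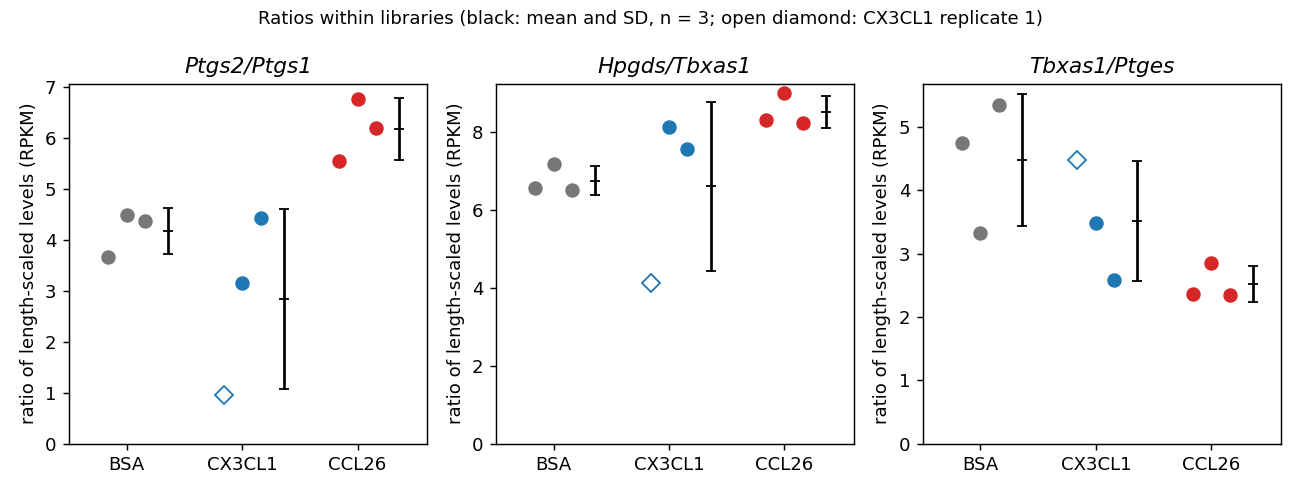
Ratios of the length-scaled levels (RPKM) of 2 genes within each library, by treatment (linear axes from 0); points are libraries, the open diamond is CX3CL1 replicate 1 and the black bar is the mean with the SD over 3 libraries. Ptgs2 over Ptgs1 is 5.55 to 6.76 with CCL26 and 3.66 to 4.48 with BSA, and Hpgds over Tbxas1 is likewise higher with CCL26.

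The wider pathway was read from 3 lists holding 65 further genes, of which 42 were in the table, 40 were tested with 9 libraries and 41 with 8. With 9 libraries none of the 40 passed in any comparison. In the 8-library fit 5 rose and 8 fell with CCL26 over BSA, 31.7% of 41 where 19.0% of the table passed, none passed with CX3CL1 over BSA, and between CCL26 and CX3CL1 2 stood higher and 4 lower in the CCL26 libraries (14.6%, where 10.1% of the table passed). The median of the 41 was -0.05, -0.01 and -0.07 in these comparisons.

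Of 12 tested prostaglandin and thromboxane genes, 3 rose and 5 fell with CCL26 in the 8-library fit, where 19.0% of the table passed. With 9 libraries 0 of the 12 passed. Akr1b3, an aldose reductase that can also form prostaglandin F2, had the smallest p of the 41 genes. It went from 189, 191 and 204 CPM with BSA to 147, 136 and 139 with CCL26, a log2 fold change of -0.46 (SE 0.0498, edgeR adjusted p = 1.62e-07; adjusted p = 0.846 with 9 libraries). With CX3CL1 it was at 169 and 174 CPM in replicates 2 and 3 and at 311 in replicate 1. The difference of CX3CL1 from BSA without replicate 1 did not pass (-0.18, adjusted p = 0.286). Ptges3, the cytosolic prostaglandin E synthase and a co-chaperone of HSP90, fell from 187 ± 7.14 to 152 ± 10.9 CPM (-0.29, SE 0.0549, edgeR adjusted p = 0.000347).

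The other genes of this list past the test were chosen for mention after their values were seen. The prostaglandin receptor genes Ptger2 (EP2, 0.59, from 9.93 ± 1.36 to 14.9 ± 3.49 CPM) and Ptgir (the prostacyclin receptor, 0.22) rose with CCL26, as did the prostaglandin reductase gene Zadh2 (0.36). The exporter gene Abcc4 (-0.25) and the reductase gene Ptgr1 (-0.19) fell. Hpgd, whose enzyme starts the breakdown of prostaglandins, fell by 1.40 on the log2 scale (SE 0.454, edgeR adjusted p = 0.0308), from 45, 26 and 31 counts to 17, 17 and 8.

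Of 12 tested leukotriene and lipoxygenase genes none passed between CCL26 and BSA or between CX3CL1 and BSA in the 8-library fit. Cysltr1, a receptor for the cysteinyl leukotrienes, was lower with CCL26 than with CX3CL1 (26.0 ± 1.83 CPM, n = 3, against 35.5 ± 1.63, n = 2 without CX3CL1 replicate 1; -0.45, SE 0.101, edgeR adjusted p = 0.00394, and 0.423 with 9 libraries). Its CCL26 libraries lay from 24.5 to 28.0 CPM, below all 6 others. Cyp4f18, which inactivates leukotriene B4, had -0.67 with each chemokine against BSA, with edgeR adjusted p-values of 0.596 for CX3CL1 and 0.0608 for CCL26. With CX3CL1 replicate 1 included the value for CX3CL1 was 0.43.

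Of 17 tested genes for release and reuse of arachidonate, 2 rose and 3 fell with CCL26 in the 8-library fit, where 19.0% of the table passed. With 9 libraries 0 of the 17 passed. Acsl3, a ligase that activates long-chain fatty acids, rose from 65.0 ± 4.04 to 81.5 ± 4.79 CPM (0.33, SE 0.0692, edgeR adjusted p = 0.00107). Dagla (0.67), a diacylglycerol lipase gene, rose too. Pla2g7 (-0.28), which breaks down platelet-activating factor, the lipase gene Pnpla2 (-0.27) and Anxa1 (-0.15), whose protein restrains phospholipase A2, fell. Dagla and the 3 that fell were named after their values were seen.

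**Figure D4:**
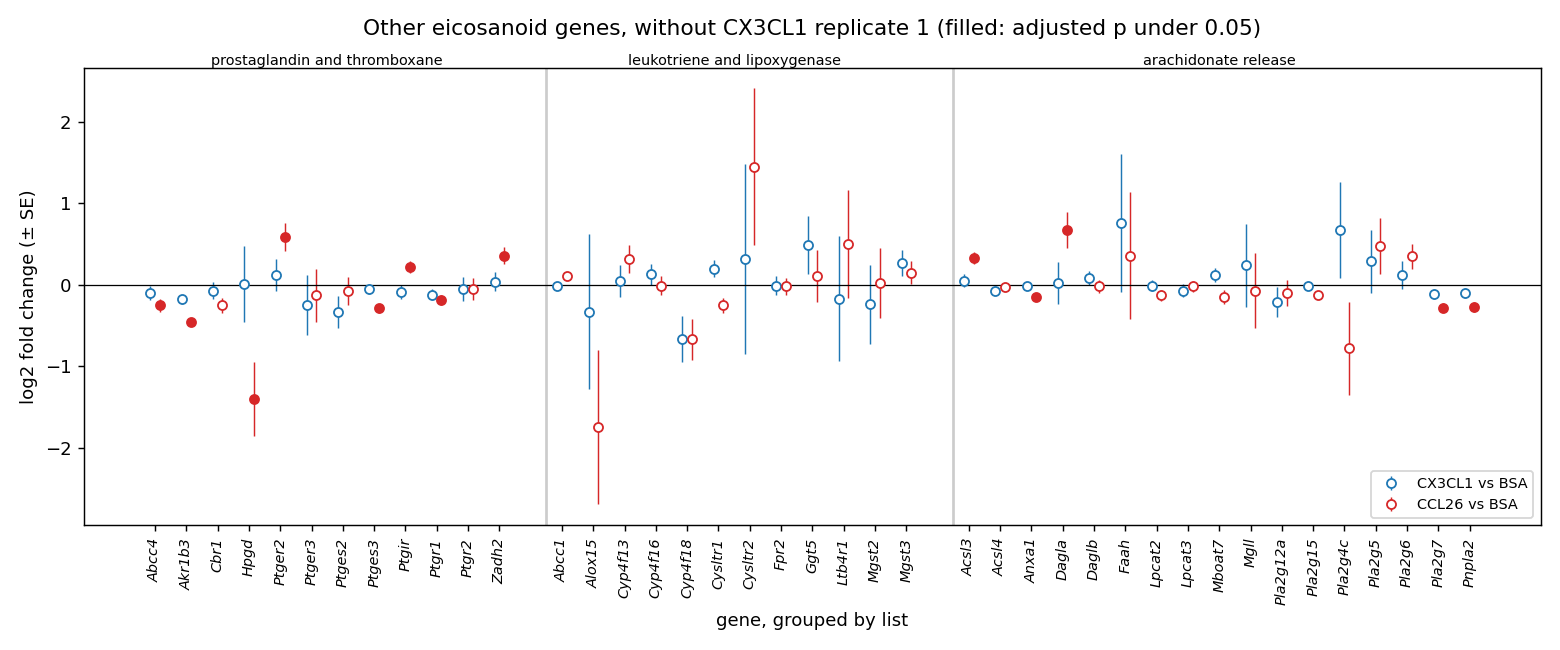
Log2 fold change (vertical axis, bars are ± 1 SE) against BSA of 41 further eicosanoid genes in the fit without CX3CL1 replicate 1, grouped by list, for CX3CL1 (blue) and CCL26 (red); filled points have an edgeR adjusted p under 0.05. The 13 filled points all belong to CCL26, 5 above and 8 below 0, and none lies in the leukotriene list.

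Likeness was measured to Alox5ap, which had the smallest p of the 10 genes over the 3 comparisons with 9 libraries (with 8, Ptgs2 and Tbxas1 had smaller ones). The genes whose log2 levels followed it most closely over the 8 libraries were Mkks (Pearson r = 0.984), Eid1 (0.978), Gm4204 (0.978), Rc3h1 (0.972) and Cd300ld3 (0.970), out of 11393 genes with a mean of at least 1 CPM. The points share 3 treatments, so genes that differ between these follow each other, and the highest values out of so many genes are given as a description. With CX3CL1 replicate 1 included Mkks had 0.912 and Rc3h1 -0.225.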

How the data were processed

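Messenger RNA of mouse bone marrow-derived macrophages was sequenced in 9 libraries. The authors deposited 1 table of raw read counts for 13593 genes. Per the submitters' processing notes STAR, featureCounts and MultiQC were used with GRCm38 (mm10). Versions and strand setting are not given in the sources used here. The deposited counts are labelled as filtered, but the rule of that filter is not given. Genes absent from the table may have been removed by it. Symbols were taken from the table, and for 1343 genes without one from GENCODE M21, which left 10 without.

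Counts were tested with edgeR 4.0.16 in R 4.3.3: genes kept by filterByExpr (12915 with 9 libraries, 13245 with 8), TMM scaling, 1 mean per group, quasi-likelihood F test, Benjamini-Hochberg adjustment over all tested genes, threshold 0.05. SEs come from the F statistic. CPM used TMM-scaled library sizes, and RPKM the union exon length. The script was tested on data simulated with the spread of each fit. For CCL26 against BSA it recovered 4.48% of 1.5-fold changes with 9 libraries and 88.1% without CX3CL1 replicate 1. With 9 libraries the simulation gave every library, those with BSA and CCL26 too, a spread that included CX3CL1 replicate 1. Its 4.48% is thus not the recovery for BSA and CCL26 libraries with their own spread. Only genes above a minimum mean level were changed. Alternatives were DESeq2 1.42.0, its size factors, no filter, limma 3.58.1 voom with library weights, a replicate term, 6 libraries, and leaving out each library.

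The 10 genes, the pathway lists and the markers (macrophage, mast cell, neutrophil, platelet, stromal, dendritic and lymphocyte) were chosen with earlier results of these data known. Beyond the 10, the rule named pathway genes past the threshold with 9 libraries, else the 3 with the smallest p per comparison with 8, and the 5 genes most correlated, on log2(CPM + 0.5), with the gene of smallest p. Promoter sequences are from RefSeq (GRCm38.p6), with entries for 9 of the 10 genes.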

Additional observations from a re-analysis of the deposited data

How the results depend on the processing

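The number of the 10 genes past the threshold was 0 in each comparison with 9 libraries, and stayed 0 with DESeq2, with its size factors, without a filter and with a replicate block. It was 2 for CCL26 against BSA with the 6 libraries compared, and 2 for CCL26 against BSA and 2 against CX3CL1 both without CX3CL1 replicate 1 and with limma-voom weights. Leaving out each of 9 libraries gave 0 to 2, 0 to 2 and, for CX3CL1 against BSA, 0. Settings added after seeing the data left out a further library from the 8 and gave 2 to 3, 1 to 3 and 0 to 1. The 1 was Ptgs2, called without CCL26 replicate 3 (edgeR adjusted p = 0.0257).

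The labels give the groups shared replicate numbers. Deviations from the group means correlated at -0.11 to 0.08 between same-numbered libraries (9 pairs) and at -0.12 to 0.12 between others (18 pairs). With 3 libraries per group, and CX3CL1 replicate 1 standing apart, these values cannot show whether same-numbered libraries shared an animal or culture. With the replicate block 0 genes of the 10 passed with 9 libraries, and 2 (CCL26 against BSA) and 3 (against CX3CL1) with 8, where Hpgds had -0.15.

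Of 540 values under alternatives 36 changed sign, none of them past the threshold, and the cause was not tested. With limma-voom weights these were, for CX3CL1 against BSA, Ptgs1 -0.22, Ptger4 0.11, Alox5 0.06, Alox5ap -0.01, Tbxas1 -0.11 and Hpgds 0.09, for CCL26 against BSA Lta4h 0.00, and for CCL26 against CX3CL1 Ptges -0.02 and Hpgds -0.10. Leaving out 1 of 9 libraries gave, for CX3CL1 against BSA, Ptgs1 -0.22 to 0.37, Ptger4 -0.27 to 0.13, Alox5 -0.24 to 0.04, Alox5ap -0.03 to 0.21, Tbxas1 -0.12 to 0.13 and Hpgds -0.14 to 0.10. For CCL26 against BSA it gave Pla2g4a 0.00 to 0.06, Lta4h -0.05 to 0.02 and Hpgds -0.07 to 0.03, and against CX3CL1 Ptges -0.06 to 0.22, Alox5 -0.20 to 0.08 and Hpgds -0.13 to 0.10. Without a further library of the 8, Hpgds ranged from -0.16 to -0.07.

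Over all genes, 0, 56 and 53 passed with 9 libraries for CX3CL1 against BSA, CCL26 against BSA and CCL26 against CX3CL1. In that order the counts were 44, 2517 and 1338 without CX3CL1 replicate 1, 29, 2479 and 1340 with limma-voom weights, 0, 248 and 251 with DESeq2, 0, 2417 and 4 with 6 libraries, and 0, 14 and 11 with the replicate block (16, 2510 and 1200 with 8 libraries).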

Other observations

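The marker lists not yet described in full were low in sum in all libraries. The mast cell, basophil and eosinophil genes summed to 3.95 to 6.32 CPM with BSA, 3.36 to 5.62 with CX3CL1 and 5.55 to 6.91 with CCL26. Of 9 stromal genes 5 were present (6.16 to 8.16, 8.16 to 17.1 and 6.91 to 8.90 CPM in the same order of groups), of 8 dendritic cell genes 4 (4.16 to 4.79, 3.47 to 10.2 and 3.94 to 4.61 CPM) and of 8 lymphocyte genes 1 (0.612 to 0.906, 0.465 to 0.993 and 0.109 to 1.69 CPM). The highest CX3CL1 sums of the last 3 lists came from CX3CL1 replicate 1. Without it their CX3CL1 sums were 8.16 to 8.41, 3.47 to 4.01 and 0.465 to 0.637 CPM. No gene of these last 3 lists passed in any comparison with 9 or 8 libraries.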
